A study of Mus musculus with 8 samples.

Results

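Lcn2, Steap4, S1pr3, Timp1, Hspb1, Cd44, Cp, Serpina3n, Aspg and Vim are commonly used as pan-reactive astrocyte genes, that is, as markers of reactive astrocytes whatever the injury. The 10 genes were picked by symbol and were all found among the 54146 genes of the expression tables, and each had its own gene identifier. RNA-seq gave their mRNA levels in 8 libraries from primary astrocytes from the cortices of neonatal C57BL/6 mice, which make 4 groups of 2 biological replicates. Astrocytes with control KD or GSTM1 KD were profiled without stimulation, called the basal level, and after 6 h with TNF-α (50 ng/ml). All 4 groups had been infected with a lentivirus, which carried a non-silencing shRNA in control KD and an shRNA against Gstm1 in GSTM1 KD, and had been selected with puromycin. The astrocytes were the CD11b-negative cells left after shaking mixed glial cultures from pooled brains, so the basal cells had also been through dissociation, serum culture, infection and selection. The question of the comparisons was how loss of GSTM1, a mu-class glutathione S-transferase, alters gene expression in astrocytes at rest and under an inflammatory cytokine.

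Astrocytes respond to injury, infection and inflammatory cytokines by a graded change called reactivity, in which they enlarge their intermediate filament network and alter their adhesion molecules and secreted proteins. The pan-reactive genes cover several of these steps. Lcn2, Timp1, Serpina3n and Cp encode secreted or surface-anchored proteins that bind iron carriers, block proteases or oxidise iron, Cd44, S1pr3 and Steap4 encode membrane proteins, and Vim, Hspb1 and Aspg encode intracellular proteins. In the brain they are best known from lesions and from systemic inflammation, where many of them rise in astrocytes.

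The libraries held 17349682 to 34434615 expected counts in all, and 19371 to 21557 genes had a count. Gstm1, the targeted gene, was 10.1-fold lower in GSTM1 KD than in control KD at the basal level and 12.8-fold lower after TNF-α (edgeR's quasi-likelihood test, adjusted p = 0.0132 and 0.00981). Astrocyte markers were present in every library, and the summed level of 10 of them ran from 1634 to 3870 TPM (transcript abundance per length, scaled to the same total in each library) in unstimulated control KD and from 3744 to 5807 TPM in unstimulated GSTM1 KD. After TNF-α the sums were 1608 to 3684 and 3557 to 5477 TPM. Replicate 1 of control KD was the lowest in both states, with Gfap, the astrocyte intermediate filament gene, at 707 TPM against 2206 TPM in replicate 2 at the basal level. Gfap contributed most to the sum in every library and held 2333 and 4184 TPM in unstimulated GSTM1 KD. Of this list S100b was called lower in GSTM1 KD in both states and no gene was called higher. The defining microglial genes P2ry12 and Cx3cr1 did not exceed 0.47 TPM in any library. Several marker lists of other cell types differed between GSTM1 KD and control KD, and their values are given beside the called genes.

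By TPM, which takes gene length into account, the 10 genes covered about the whole range of expression in these cells. In control KD at the basal level Vim, the intermediate filament protein of immature and reactive glia, stood at 7477 and 9806 TPM in the 2 libraries. Next came Cd44 at 572 and 597 TPM, Timp1 at 406 and 257 TPM and Hspb1 at 203 and 437 TPM. Lcn2, Serpina3n, S1pr3 and Cp had group means between 58.3 and 84.9 TPM, Steap4 had a mean of 2.92 TPM and Aspg of 0.88 TPM. The ranges of Timp1 and Hspb1 overlapped, as did those of Lcn2 and Serpina3n and those of S1pr3 with its neighbours Serpina3n and Cp, while Vim lay above Cd44, Cd44 above Timp1 and Cp above Steap4 in every library of this group. Lcn2 lay above Hspb1 by mean after TNF-α in both kinds of cells, and by mean it was level with Timp1 in GSTM1 KD after TNF-α, at 164 and 163 TPM. Aspg was the lowest of the 10 in every group, with 3 to 45 counts a library, and its estimated effective length moved between 577 and 2373 bases over the libraries.

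**Figure D1:**
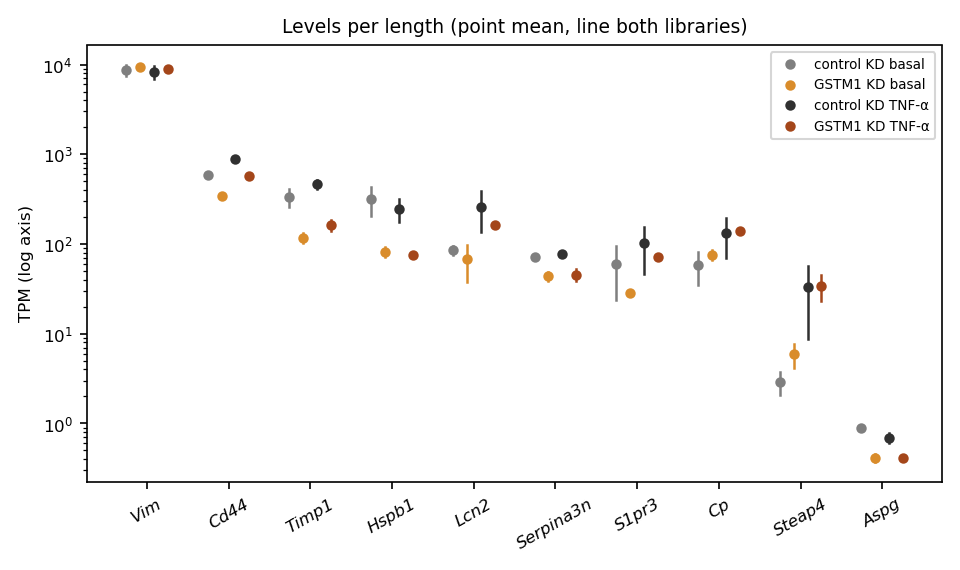
Levels of the 10 genes in TPM on a log axis, with genes ordered by their mean in control KD at the basal level. Points are group means and lines join both libraries of a group. Vim is highest and Aspg lowest in all 4 groups, and the long lines of S1pr3, Lcn2 and Steap4 show replicates that lie far apart.

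Promoter sequence is shown for 5 of the genes: the 4 that were called lower in GSTM1 KD astrocytes, and Steap4, which had the highest fold difference between TNF-α and the basal level. The windows are the bases before the RefSeq transcription start in GRCm38.p6, 5′ to 3′ on the gene's strand, namely chrX:20869916-20870165 (plus strand) for Timp1, chr5:135887669-135887918 (plus) for Hspb1, chr2:102901666-102901915 (minus) for Cd44, chr12:104406458-104406707 (plus) for Serpina3n and chr5:7960222-7960456 (plus) for Steap4. The Steap4 window is 235 bases long and the others 250, because 15 bases next to its start lie inside the GENCODE gene. Capitals mark every match, on either strand, to the letters GGG followed by any 5 bases and CC (a loose NF-κB pattern), TTCNNNGAA (STAT), TTGNNNAA (C/EBP), TGANTCA (AP-1) or GAANNTTC (heat shock element), and overlapping matches run together.
Timp1: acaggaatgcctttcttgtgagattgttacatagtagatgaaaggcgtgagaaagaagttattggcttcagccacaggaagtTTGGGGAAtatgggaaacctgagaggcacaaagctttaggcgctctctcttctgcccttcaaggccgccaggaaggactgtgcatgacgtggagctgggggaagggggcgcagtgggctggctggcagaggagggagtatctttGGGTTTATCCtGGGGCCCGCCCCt
Hspb1: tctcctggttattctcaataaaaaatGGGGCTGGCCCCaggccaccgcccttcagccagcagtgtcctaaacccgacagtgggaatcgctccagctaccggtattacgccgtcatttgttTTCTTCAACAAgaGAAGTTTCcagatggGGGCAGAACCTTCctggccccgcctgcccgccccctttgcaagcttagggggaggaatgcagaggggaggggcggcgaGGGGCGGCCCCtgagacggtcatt
Cd44: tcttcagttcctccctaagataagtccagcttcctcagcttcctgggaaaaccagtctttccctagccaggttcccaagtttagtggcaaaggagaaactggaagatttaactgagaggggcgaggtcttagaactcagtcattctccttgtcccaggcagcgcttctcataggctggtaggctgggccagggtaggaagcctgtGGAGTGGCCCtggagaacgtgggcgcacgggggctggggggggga
Serpina3n: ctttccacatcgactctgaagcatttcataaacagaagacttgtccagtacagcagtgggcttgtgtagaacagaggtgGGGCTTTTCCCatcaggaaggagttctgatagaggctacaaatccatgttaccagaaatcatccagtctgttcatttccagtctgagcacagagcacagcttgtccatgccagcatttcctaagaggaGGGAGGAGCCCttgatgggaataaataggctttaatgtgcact
Steap4: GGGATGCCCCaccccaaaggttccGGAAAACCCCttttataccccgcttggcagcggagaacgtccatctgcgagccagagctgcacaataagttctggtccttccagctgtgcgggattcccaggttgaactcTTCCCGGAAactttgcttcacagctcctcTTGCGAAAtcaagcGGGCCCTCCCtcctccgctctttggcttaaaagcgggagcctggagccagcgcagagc

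Each of the 10 genes has a RefSeq window from 250 bases before to 50 bases after its start, and Cp has 2. The loose NF-κB pattern occurred in at least 1 window of all 10 genes, in S1pr3 only after the start, and in 50.8% of all 32851 windows of the genome. A narrower kB consensus occurred in Steap4 and Vim and in 8.50% of all windows. The STAT pattern occurred in Steap4 alone of the 10, at -116 to -108 from the start, against 8.30% of all windows, and the heat shock element occurred in Hspb1 alone, at -117 to -110 and again at -97 to -90, against 7.90%. C/EBP letters were found in Lcn2, Steap4, Timp1, Hspb1 and Cp and in 36.7% of all windows, and the AP-1 letters in Cp and in 7.80%. These matches describe the sequence only.

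GSTM1 KD astrocytes held less mRNA of Timp1, Hspb1, Cd44 and Serpina3n than control KD astrocytes, before TNF-α and again after it. The differences lay between 1.60-fold for Cd44 after TNF-α and 4.10-fold for Hspb1 at the basal level. In neither state was any of the 10 genes called higher by edgeR with all 4 libraries, the filter on low counts and no replicate block. With the replicate number as a block, Steap4 (log2 fold change 0.96) and Cp (0.47) were called higher at the basal level. That fit called 4712 genes in all. Without the block, 5.62% of 14899 genes tested at the basal level were called lower and 4.60% higher, beside 4 lower and 0 higher among the 10 genes. Of 14593 genes tested after TNF-α, 8.92% were called lower and 7.26% higher, beside the same 4 lower and 0 higher. DESeq2 also called 4 lower and 0 higher in each state, where it called 16.9% and 19.9% of all genes in either direction. At an unadjusted p under 0.05 edgeR gave 5 and 4 of the 10, beside 31.6% and 36.2% of all genes. The 10 had a median log2 fold change of -0.81 before TNF-α and of -0.70 after it, where the medians of all genes tested were -0.0020 and -0.011. In a bulk sample, fewer cells of a type and less RNA per cell cannot be told apart.

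**Figure D2:**
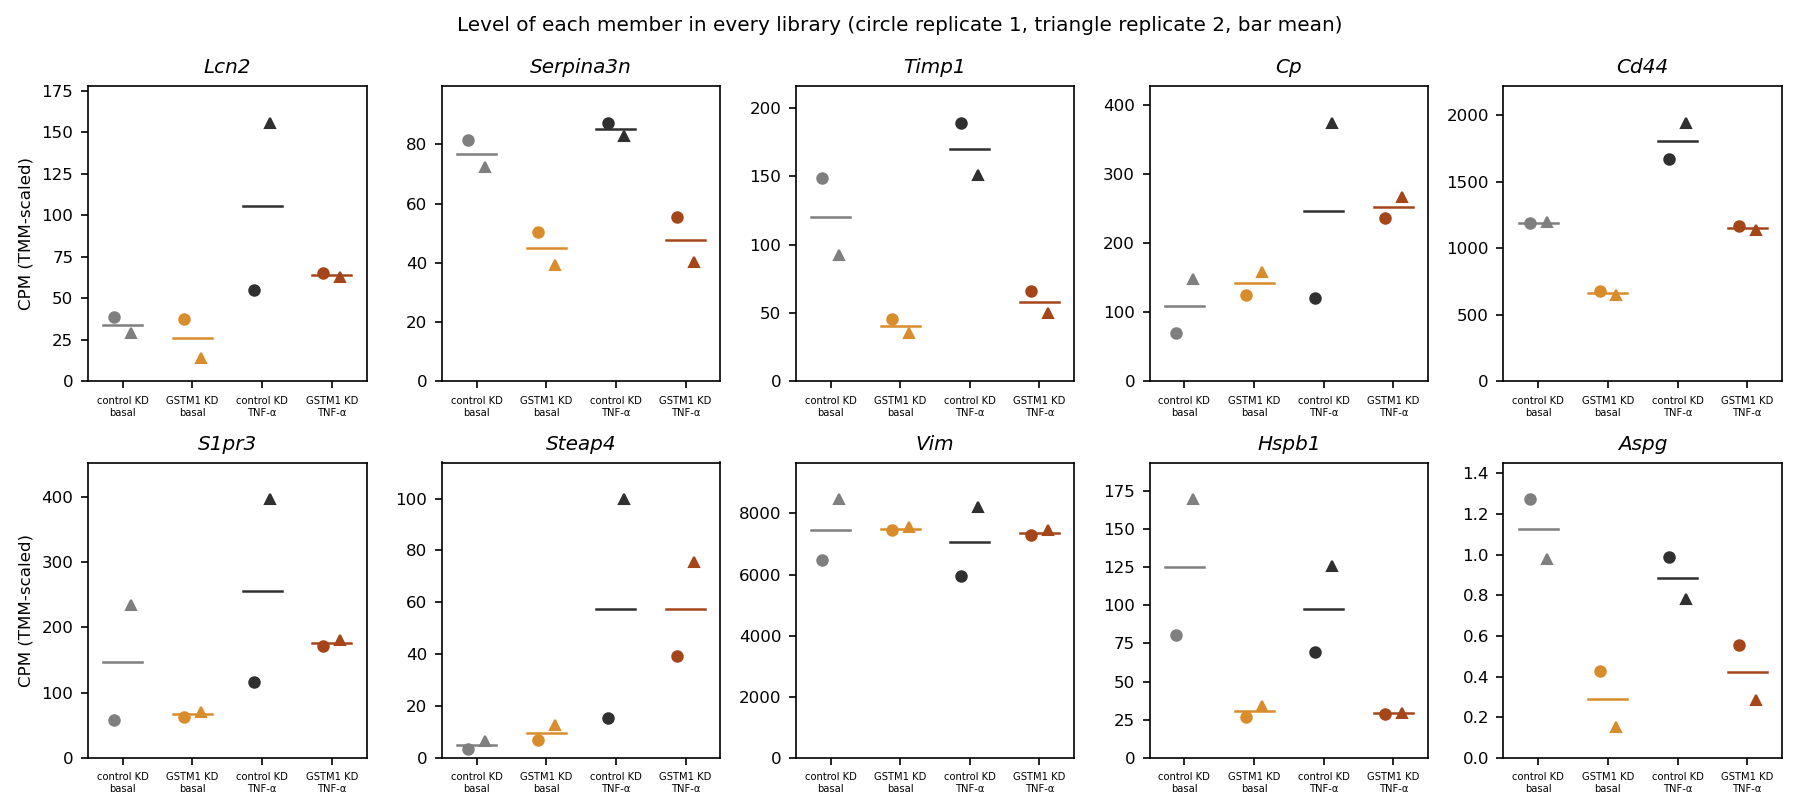
Level of each of the 10 genes in all 8 libraries, in CPM scaled by TMM factors, each panel on its own axis from 0. Circles are replicate 1, triangles replicate 2 and bars the mean of a group. In Timp1, Hspb1, Cd44, Serpina3n and Aspg all 4 GSTM1 KD libraries lie below all 4 control KD libraries, and in Steap4, Cp, S1pr3 and Lcn2 the control KD replicates after TNF-α lie far apart.

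Timp1 encodes a secreted inhibitor of matrix metalloproteinases. In TMM-scaled CPM, the counts of a gene as a share of the library's scaled total, it stood at 149 and 92.0 in unstimulated control KD and at 45.9 and 35.4 in unstimulated GSTM1 KD. After TNF-α it stood at 189 and 151 CPM in control KD and at 65.9 and 50.3 CPM in GSTM1 KD. Both GSTM1 KD libraries lay below both control KD libraries in each state, and even after TNF-α both GSTM1 KD libraries stayed below unstimulated control KD. The log2 fold changes were -1.57 (SE 0.258) and -1.57 (SE 0.183) in the 2 states, which is 2.96-fold and 2.97-fold lower (edgeR's quasi-likelihood test, adjusted p = 0.0277 and 0.0122). In its family, Timp4 was also lower in both states, with log2 fold changes of -1.20 and -1.17, Timp3 was higher after TNF-α by 0.71 on the log2 scale, and Timp2 was not called in either.

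Serpina3n encodes a secreted serine protease inhibitor that is strongly induced in reactive astrocytes in the living brain. It measured 81.4 and 72.3 CPM in control KD and 50.5 and 39.2 CPM in GSTM1 KD at the basal level. The values after TNF-α were 87.3 and 82.9 CPM in control KD and 55.4 and 40.3 CPM in GSTM1 KD. Its control KD replicates were close together, and the GSTM1 KD libraries were lower without overlap in each state. The gene was 1.71-fold lower at the basal level (log2 fold change -0.78, SE 0.153, adjusted p = 0.0377) and 1.80-fold lower after TNF-α (-0.85, SE 0.167, adjusted p = 0.0303). By limma on log2(TPM + 1) the basal value was -0.71 and was not called (adjusted p = 0.0534). Of its transcript, 6.90% of the 50-base words also occur in Serpina3f, Serpina3g or the pseudogene Serpina3e-ps, so a small part of its counts could be shared with these neighbours. None of the 10 other Serpina3 genes listed passed the filter on low counts.

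Cd44 encodes the cell surface receptor for hyaluronan, which anchors astrocytes to the extracellular matrix. At the basal level it was at 1188 and 1199 CPM in control KD and at 678 and 650 CPM in GSTM1 KD. After TNF-α it was at 1668 and 1942 CPM in control KD and at 1165 and 1138 CPM in GSTM1 KD. GSTM1 KD astrocytes thus held about as much Cd44 mRNA after TNF-α as control KD astrocytes held before it, and the replicates of a group were within 1.16-fold of each other. The log2 fold change was -0.85 (SE 0.120, adjusted p = 0.0227) at the basal level and -0.67 (SE 0.133, adjusted p = 0.0307) after TNF-α. Has2, which encodes a hyaluronan synthase, was the only 1 of 10 tested hyaluronan and Cd44 partner genes that was called, and it was lower in both states, by 5.15-fold and 2.73-fold.

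Hspb1 encodes HSP25, a small heat shock protein that chaperones unfolded proteins and stabilises actin. It measured 80.6 and 169 CPM in control KD and 26.8 and 34.2 CPM in GSTM1 KD at the basal level. After TNF-α it measured 69.1 and 126 CPM in control KD and 28.9 and 29.6 CPM in GSTM1 KD. The control KD replicates differed by 2.10-fold at the basal level and 1.82-fold after TNF-α, replicate 2 being higher in each, and all GSTM1 KD libraries lay below the lower of them. Hspb1 was 4.10-fold lower at the basal level (log2 fold change -2.04, SE 0.361, adjusted p = 0.0307) and 3.38-fold lower after TNF-α (-1.76, SE 0.278, adjusted p = 0.0197). A processed pseudogene, Hsp25-ps1, shares 51.6% of the 50-base words of the Hspb1 transcript, and it held between 0 and 14 counts a library beside 516 to 4335 counts of Hspb1. Among 5 tested small heat shock genes, Cryab (-1.15 and -1.05 on the log2 scale) and Hspb6 (-0.79 and -0.83) were lower in both states.

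**Figure D3:**
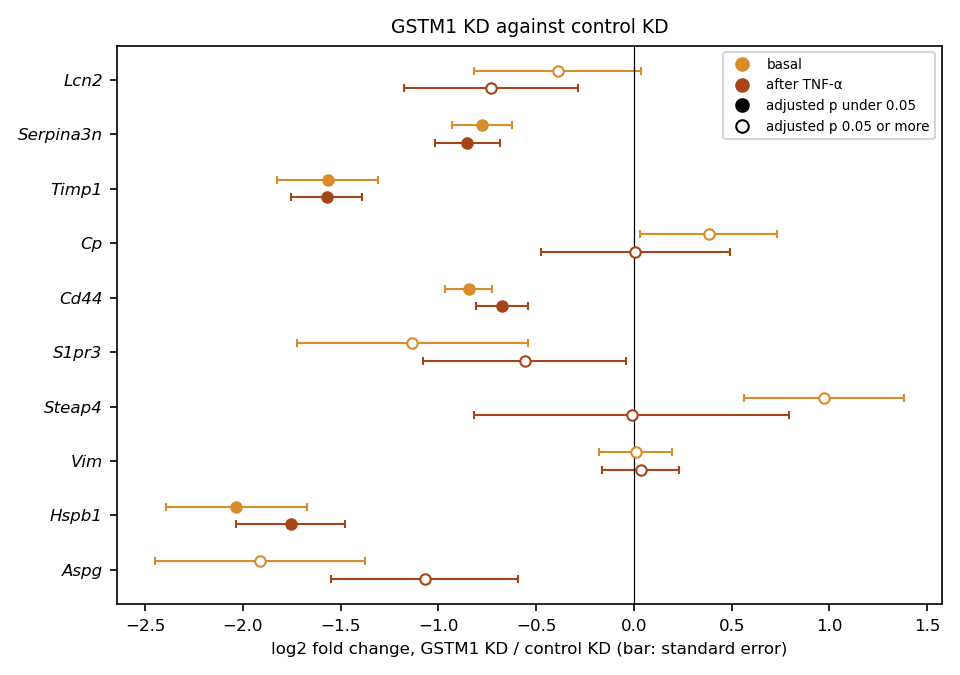
Log2 fold change of GSTM1 KD against control KD for each of the 10 genes, before and after TNF-α, with bars of 1 standard error. Filled points have an adjusted p under 0.05. Timp1, Hspb1, Cd44 and Serpina3n are filled and left of 0 in both states, and Aspg lies at -1.91 and -1.07 with open points.

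Aspg, which encodes an asparaginase, had low counts. Unstimulated control KD libraries held 45 and 25 of them and unstimulated GSTM1 KD libraries 10 and 3. After TNF-α the control KD libraries held 23 and 13 counts, against 12 and 5 with GSTM1 KD. In CPM all GSTM1 KD libraries lay below all control KD libraries, which held for 5 of the 10 genes and for 18.4% of the 15332 genes tested over all libraries, and no member lay above, where 19.6% of those genes did. Its log2 fold changes were -1.91 (SE 0.537) before TNF-α and -1.07 (SE 0.478) after it, and neither passed the adjusted test (adjusted p = 0.0774 and 0.170). The basal value was -1.21 with effective lengths as offsets (edgeR, adjusted p = 0.147) and -0.41 by limma on log2(TPM + 1) (adjusted p = 0.129). It was -2.87 without GSTM1 KD replicate 1 and -2.09 without control KD replicate 2. By edgeR it passed with all 8 libraries in the fit (-1.91, adjusted p = 0.0469) and without the filter on low counts (-1.94, adjusted p = 0.00321). It also passed in edgeR with the replicate number as a block (-1.95, adjusted p = 0.0101).

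Lcn2, S1pr3, Steap4, Cp and Vim were not called between GSTM1 KD and control KD in either state. This holds for edgeR with all 4 libraries of a state, the filter on low counts and no replicate block. With the block, S1pr3 (-0.82) was called lower and Steap4 (0.96) and Cp (0.47) higher at the basal level. Without the filter on low counts S1pr3 was called lower in both states and Lcn2 after TNF-α, and Steap4 was called higher at the basal level. In that basal fit the SE of S1pr3 was 0.145 and that of Cd44 0.141, where the filtered fit gave 0.592 and 0.120. The control KD replicates of S1pr3 lay 4-fold apart at the basal level and those of Cd44 1.01-fold. Lcn2 encodes lipocalin 2, a secreted carrier of iron-binding siderophores, and was at 38.5 and 29.4 CPM in control KD and at 37.4 and 14.4 CPM in GSTM1 KD at the basal level. After TNF-α it was at 55.3 and 156 CPM in control KD and at 65.5 and 63.1 CPM in GSTM1 KD, so that both GSTM1 KD libraries lay between the control KD replicates. Its log2 fold changes were -0.39 (SE 0.428, adjusted p = 0.569) and -0.73 (SE 0.445, adjusted p = 0.289). Slc22a17, a Lcn2 receptor, was higher in GSTM1 KD by 1.32 and 1.31 on the log2 scale.

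S1pr3, a receptor for the lipid mediator sphingosine 1-phosphate, had the widest gap between control KD replicates at the basal level, at 58.5 and 234 CPM, a 4-fold gap at percentile 99.2 of the genes tested. GSTM1 KD stood at 63.1 and 70.1 CPM, within that gap. After TNF-α the values were 116 and 396 CPM in control KD and 171 and 181 CPM in GSTM1 KD. The log2 fold changes were -1.13 (SE 0.592, adjusted p = 0.247) and -0.56 (SE 0.521, adjusted p = 0.479). The basal value turned to 0.18 without control KD replicate 2 and was -1.82 without control KD replicate 1. Its relative S1pr2 was called lower in both states, by 1.00 and 0.91 on the log2 scale.

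Cp encodes ceruloplasmin, a copper ferroxidase that astrocytes carry on their surface. It was at 69.6 and 149 CPM in control KD and at 125 and 159 CPM in GSTM1 KD at the basal level, with overlapping groups and a log2 fold change of 0.38 (SE 0.351, adjusted p = 0.495). After TNF-α it was at 120 and 374 CPM in control KD and at 237 and 267 CPM with GSTM1 KD, and the log2 fold change was 0.01 (SE 0.484, adjusted p = 0.994). Its exons share 108 bases with those of Hps3 on the opposite strand, 1.13% of their length.

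Steap4 encodes a metalloreductase of iron and copper. It was at 3.53 and 6.41 CPM in control KD and at 6.82 and 12.6 CPM in GSTM1 KD at the basal level, where the groups did not overlap but the log2 fold change of 0.97 (SE 0.411) had an adjusted p of 0.173. After TNF-α the control KD libraries were at 15.2 and 99.6 CPM and the GSTM1 KD libraries between them, at 39.4 and 75.6 CPM. The log2 fold change there was -0.01 (SE 0.805, adjusted p = 0.994). Vim was at 6460 and 8457 CPM in control KD and at 7441 and 7564 CPM in GSTM1 KD when unstimulated, and at 5938 and 8220 against 7293 and 7443 CPM after TNF-α. The GSTM1 KD libraries lay between the control KD replicates each time, and the log2 fold changes were 0.01 (SE 0.185) and 0.03 (SE 0.198) in the 2 states, with adjusted p of 0.981 and 0.918. Among 7 tested intermediate filament and linker genes, Nefm (-1.64 and -1.45 on the log2 scale) and Plec (-1.28 and -1.43) were called lower in both states.

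The wider list of 58 family members and partners of the 10 genes had 37 genes tested. At the basal level 1 was called higher, Slc22a17, and 7 lower, beside 4.60% and 5.62% of all genes tested. The median log2 fold change was -0.14, where that of all genes tested was -0.0020. After TNF-α 2 were called higher, Slc22a17 and Timp3, and the same 7 lower (Cryab, Has2, Hspb6, Nefm, Plec, S1pr2 and Timp4), beside 7.26% and 8.92% of all genes tested. The median was -0.12, against -0.011 for all genes tested. Of 13 tested genes of the gp130 and STAT3 axis, which drives reactivity genes in astrocytes, Il6ra was higher in GSTM1 KD by 1.33 and 1.76 on the log2 scale and Lif was lower by 2.35-fold and 2.90-fold. Il6 was lower after TNF-α, by 2.81-fold, and Stat3 and Socs3 were not called in either state.

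The other genes of the usual pan-reactive panel differed from the 10 in part. Cxcl10, a chemokine of interferon responses, was 2.74-fold lower in GSTM1 KD at the basal level (log2 fold change -1.45, SE 0.322, adjusted p = 0.0476) and was not called after TNF-α (0.46, SE 0.210, adjusted p = 0.179). Gfap had log2 fold changes of 1.10 (SE 0.556) and 1.08 (SE 0.553), with adjusted p of 0.234 and 0.218. Osmr, a cytokine receptor, was not called in any comparison.

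Markers of other cell types differed between the same libraries as the 4 lower genes. The 10 markers of pericytes and fibroblasts summed to 4253 to 4576 TPM in control KD and 2282 to 2625 TPM with GSTM1 KD when unstimulated, and to 3640 to 3678 and 2037 to 2304 TPM after TNF-α. Of 8 tested, Acta2, a smooth muscle actin also made by cultured astrocytes, and Col1a2 were called lower in each state, Acta2 by 2.03-fold and 1.91-fold, while Pdgfrb was called higher after TNF-α (log2 fold change 0.81). The values of Pdgfrb before TNF-α (0.46) and of Rgs5 (1.64 and 1.55) and Dcn (0.15 and 0.35) were also above 0 and were not called. Those of Col1a1 (-0.52 and -0.46), Col3a1 (-1.05 and -0.87) and Fn1 (-0.39 and -0.36) were below 0 and were not called either. The 8 tested had median log2 fold changes of -0.45 and -0.41. Acta2 alone held 1516 to 3935 TPM of the sums, Fn1 held 417 to 566 TPM, and Lum, Kcnj8 and Rgs5 did not exceed 1.65 TPM. Markers of the oligodendrocyte lineage, 10 genes of which Olig1 contributed most, summed to 563 to 662 TPM in control KD against 477 to 494 TPM with GSTM1 KD when unstimulated, and to 465 to 519 against 370 to 385 TPM after TNF-α. Of 6 tested, Olig2 was called lower in both states, by 0.85 and 1.14 on the log2 scale, and Olig1 only after TNF-α (adjusted p = 0.0497), while Mog did not exceed 0.05 TPM. Neuronal markers were higher in sum with GSTM1 KD, at 349 to 395 TPM against 305 to 308 TPM unstimulated and at 324 to 347 against 291 to 292 TPM after TNF-α, and Dlx2 was the 1 of 6 tested that was called higher (log2 fold change 1.09 and 0.92). Map2 (0.22 and 0.28), Stmn2 (0.10 and 0.04) and Tubb3 (0.18 and -0.04) contributed most to these sums and were not called. Rbfox3, Snap25, Gad2 and Slc17a7 did not exceed 0.41 TPM in any library. Ependymal and choroid plexus markers summed to 110 to 160 TPM in control KD and 141 to 156 TPM with GSTM1 KD when unstimulated, and to 103 to 123 and 140 to 146 TPM after TNF-α, and of 5 tested Folr1 was called higher in both states (2.67 and 2.78). Folr1 did not exceed 8.61 TPM, with 17 and 4 counts in unstimulated control KD and 3 and 7 after TNF-α. Foxj1 (0.01 and 0.30) and Rarres2 (-0.07 and 0.07) contributed most to the sums and were not called. Ccdc153 (3.08 and 3.29) and Aqp1 (-0.40 and 0.15) were not called either. Of 10 microglial markers 5 were tested and 0 were called in either state, with median log2 fold changes of -0.93 and -0.68. Among these C1qa stood at 4.62 and 1.25 TPM in control KD and at 1.23 and 0.45 TPM with GSTM1 KD when unstimulated, and at 4.36 and 1.13 against 2.38 and 1.12 TPM after TNF-α. Endothelial markers did not exceed 9.42 TPM in sum, and 0 of 4 tested were called.

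The part of these cells or genes in the lower Timp1, Hspb1, Cd44 and Serpina3n was not tested. The calls also rest on few libraries. With either GSTM1 KD library of a state left out, none of the 4 genes was called lower in that state, at adjusted p between 0.0648 and 0.281, in fits that called 1 and 3 of all genes at the basal level and 0 and 94 after TNF-α. The log2 fold changes in these fits ran from -1.77 to -1.39 for Timp1, from -2.23 to -1.73 for Hspb1, from -0.88 to -0.65 for Cd44 and from -1.09 to -0.61 for Serpina3n.

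TNF-α raised Cd44 in both control KD and GSTM1 KD astrocytes. No other of the 10 genes passed the adjusted test in either in the fit over all 8 libraries with the filter on low counts and no replicate block. With the replicate number as a block 3 of the 10 were called in each, in fits that also called more of all genes. In control KD without the block, 1 of the 10 was called higher and 0 lower, where 2.10% and 0.528% of 15332 genes were. In GSTM1 KD without the block, 1 of the 10 was called higher and 0 lower, where 2.35% and 0.294% were. At an unadjusted p under 0.05 there were 3 of the 10 in each, beside 12.5% of all genes in control KD and 10.9% in GSTM1 KD. DESeq2 called 2 of the 10 in control KD and 1 in GSTM1 KD, beside 4.96% and 4.22% of all genes. The 10 had median log2 fold changes of 0.55 in control KD and 0.66 with GSTM1 KD, where all genes tested had medians of -0.021 and -0.0071.

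**Figure D4:**
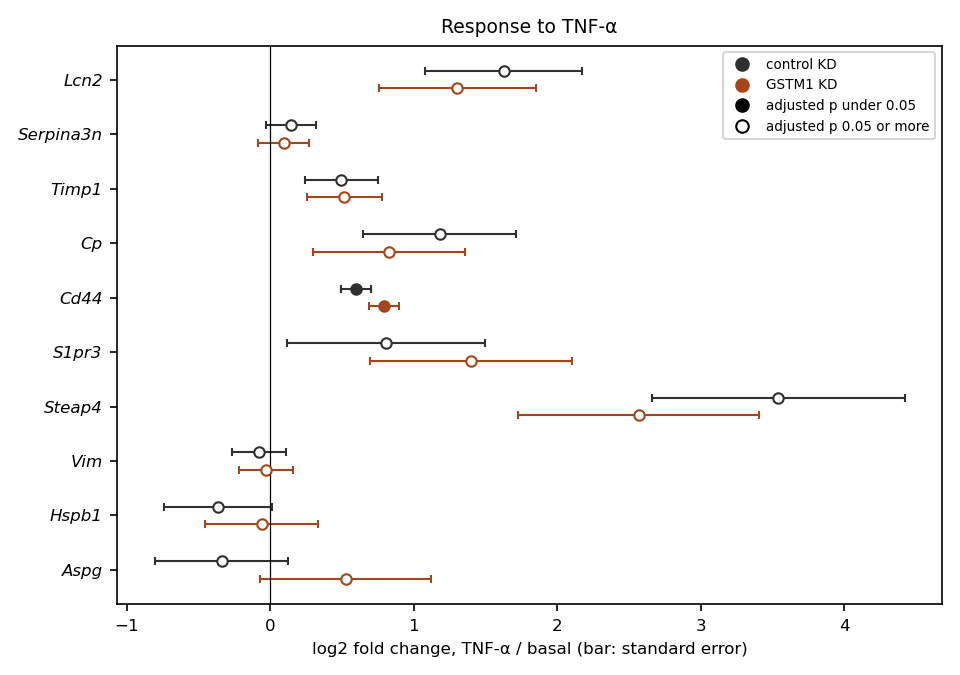
Log2 fold change of TNF-α against the basal level for each of the 10 genes in control KD and in GSTM1 KD, with bars of 1 standard error. Filled points have an adjusted p under 0.05. Only Cd44 is filled, while Steap4 lies farthest to the right, at 3.54 and 2.57, with wide bars.

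Cd44 rose by 1.51-fold in control KD (log2 fold change 0.60, SE 0.105, adjusted p = 0.0326) and by 1.73-fold in GSTM1 KD (0.79, SE 0.106, adjusted p = 0.0103). Both stimulated libraries lay above both basal libraries in each kind of cell. The call in control KD was lost without any library of the comparison except replicate 1 after TNF-α, at adjusted p between 0.108 and 0.128 and log2 fold changes between 0.50 and 0.61, in fits that called 180 to 295 genes in all against 403, and when only the 4 control KD libraries were fitted, at 0.245, where 72 of 14803 genes were called. In GSTM1 KD it was lost without any of the 4 libraries, at adjusted p between 0.0590 and 0.125 and log2 fold changes between 0.77 and 0.83, in fits that called 74 to 255 genes in all against 406.

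Steap4 had the widest fold difference of the 10 after TNF-α. It went from 3.53 and 6.41 CPM to 15.2 and 99.6 CPM in control KD, and from 6.82 and 12.6 CPM to 39.4 and 75.6 CPM in GSTM1 KD. All 4 stimulated libraries lay above all 4 basal ones, but the control KD replicates after TNF-α differed by 6.53-fold, at percentile 99.7 of the genes tested. The log2 fold change was 3.54 (SE 0.881, adjusted p = 0.104) in control KD and 2.57 (SE 0.841, adjusted p = 0.260) in GSTM1 KD. DESeq2 called it in control KD (adjusted p = 0.00957), as the only change from edgeR among the 10.

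Lcn2, Cp and S1pr3 had higher means after TNF-α, with stimulated control KD replicates that lay 2.81-fold to 3.42-fold apart. Lcn2 stood at log2 fold changes of 1.63 (SE 0.544, adjusted p = 0.242) in control KD and 1.31 (SE 0.549, adjusted p = 0.448) in GSTM1 KD, and in each kind of cell both stimulated libraries lay above both basal ones. Cp had log2 fold changes of 1.18 (SE 0.531, adjusted p = 0.439) and 0.83 (SE 0.527, adjusted p = 0.755). In control KD its stimulated libraries overlapped the basal ones, 120 CPM against 149 CPM, and in GSTM1 KD they did not. S1pr3 had log2 fold changes of 0.81 (SE 0.691, adjusted p = 0.816) and 1.40 (SE 0.704, adjusted p = 0.592), again with overlap in control KD only. When the 4 GSTM1 KD libraries were fitted alone, Steap4, S1pr3 and Cp also passed the test there, at adjusted p of 0.0315, 0.00173 and 0.0314, in a fit that called 691 of 14753 genes. S1pr2, a receptor for the same lipid as S1pr3, rose in both kinds of cells, by 0.88 (SE 0.139, adjusted p = 0.0217) and 0.99 (SE 0.145, adjusted p = 0.0151) on the log2 scale.

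Timp1 had log2 fold changes of 0.50 (SE 0.254, adjusted p = 0.533) in control KD and 0.52 (SE 0.261, adjusted p = 0.597) in GSTM1 KD, and its relative Timp3 fell in control KD by 0.72 on the log2 scale (adjusted p = 0.0107) and had a log2 fold change of -0.42 with GSTM1 KD (adjusted p = 0.0727). Serpina3n, Vim and Hspb1 had log2 fold changes between -0.36 and 0.15 in the 2 kinds of cells, and Aspg had -0.34 and 0.53. Cxcl10 rose by 6.41 (SE 0.361, adjusted p = 0.000450) in control KD and 8.35 (SE 0.397, adjusted p = 0.000255) in GSTM1 KD on the log2 scale. Of 13 tested genes of the gp130 and STAT3 axis Il6, Lif, Cebpb and Bcl3 were called higher in both kinds of cells, and Stat3 and Socs3 in neither. Of all genes tested, 2.10% were called higher in control KD and 2.35% in GSTM1 KD.

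The difference between the 2 responses was tested as the interaction of knockdown and stimulation over all 8 libraries. None of the 10 genes and 0 of 15332 genes were called by edgeR's quasi-likelihood test, a share of 0%, with 0 of the 10 and 1.92% of all genes at an unadjusted p under 0.05, and DESeq2 called 0 of the 10 and 0.176% of all genes. The interaction of Cd44 was 0.20 (SE 0.148) on the log2 scale, that of Steap4 was -0.97 (SE 1.16) and that of Aspg 0.86 (SE 0.758). Timp1, Vim and Serpina3n had interactions between -0.05 and 0.05. The standard errors of Steap4, S1pr3, Lcn2 and Cp lay between 0.741 and 1.16 in this fit. Without the filter on low counts the interaction of Steap4 was called (-0.96, adjusted p = 0.00896). At the basal level the fit without this filter gave S1pr3 and Cd44 nearly the same SE despite their unlike replicate gaps.

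Over the 8 libraries the 10 genes fell into patterns that their levels in CPM show. Timp1 and Serpina3n followed each other closely (Pearson r = 0.962 of log2 CPM), as did Serpina3n and Aspg (0.943) and Steap4 and Cp (0.934), while Steap4 and Timp1 did not (-0.036). These values describe 8 libraries that share group differences and depth, and they carry no test. Of the 15332 genes compared, Chrac1 (r = 0.989) and Pnrc1 (0.986) were among those with a pattern most like Steap4. Those most like Hspb1 were Tprgl (0.991), Nes (0.989), which encodes the intermediate filament protein nestin, and Nkx2-2 (0.989). The genes with wide replicate gaps were not the same in all groups. In control KD after TNF-α, Steap4, S1pr3, Cp and Lcn2 all differed by 2.81-fold or more between replicates, replicate 2 being higher, where the median gene differed by 1.17-fold. In GSTM1 KD after TNF-α the gaps of S1pr3, Cp and Lcn2 were 1.05-fold, 1.13-fold and 1.04-fold, and that of Steap4 was 1.92-fold.

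The genes lie on 6 chromosomes of the GRCm38 assembly, and the ranges that follow are those of the GENCODE M21 gene models, all protein coding. Lcn2 is at chr2:32384633-32388252, Cd44 at chr2:102811141-102901665 and Vim at chr2:13573927-13582826. Steap4 is at chr5:7960457-7982213 and Hspb1 at chr5:135887919-135889563, and Serpina3n at chr12:104406729-104414329 and Aspg at chr12:112106679-112127559. S1pr3 is at chr13:51408639-51422797, Cp at chr3:19957054-20009145 and Timp1 at chrX:20870166-20874735. Counts were summed over all exons of a gene, so UTR and coding exons are not separated. Beside Cp, only S1pr3 shares exon bases with another gene, 45 bases with the non-coding Gm32834 on the opposite strand.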

How the data were processed

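RNA-seq of the 8 libraries was processed by the authors, who made strand-specific libraries, mapped reads to GRCm38 with STAR (version 2.5.4b) and quantified genes with RSEM (version 1.3.0). The authors deposited RSEM's expected counts, which are not all whole in the files. The deposited TPM values are scaled by the authors' run to the same total in every library, and the deposited effective lengths, in bases, are weighted by transcript abundance. Whether counting used the strand is not given in the sources used here. Reads shared by near-identical genes are divided between them.

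Expected counts were rounded, and genes with low counts were left out by filterByExpr in edgeR (version 4.0.16, R version 4.3.3). TMM factors gave CPM, and the quasi-likelihood test with Benjamini-Hochberg adjustment over all genes tested was read at 0.05. Knockdown was tested on the 4 libraries of a state, and the TNF-α responses and their difference on all 8. The members and lists were chosen with earlier results of these data known. Every member is named. Of other genes, those named are the rest of the pan-reactive panel, family, partner and marker genes, and the 3 genes most like the members with the widest TNF-α and knockdown differences by Pearson r of log2 CPM with a prior count of 2. Some single genes chosen by these rules are not reported here. DESeq2 (version 1.42.0), limma (version 3.58.1) on log2(TPM + 1), other scalings and filters, and leaving out replicates were alternatives. With 2 libraries per group, p-values measure the spread between these samples only, and an exact test cannot pass 0.05. The scripts were tested on simulated data. Totals per library set the counting precision, and 3 counts were taken as the floor of detection for markers.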

Additional observations from a re-analysis of the deposited data

How the results depend on the processing

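The lower Timp1, Hspb1, Cd44 and Serpina3n in GSTM1 KD kept their direction under every alternative run, and the number of the 10 genes called varied as follows. At the basal level, where 4 were called, no filter on low counts gave 7 (1 higher, 6 lower), with Steap4 (0.94), S1pr3 and Aspg added, and called 3957 of 24716 genes in all against 1524 of 14899. In that fit S1pr3 and Cd44 had SEs of 0.145 and 0.141, against 0.592 and 0.120 with the filter, although their replicate gaps were unlike. The replicate number as a block gave 8 (2 higher, 6 lower), with Steap4, S1pr3, Cp and Aspg added, and called 4712 genes in all. All 8 libraries in the fit gave 5, all lower, with Aspg added (2762 of 15332 genes). TPM with limma left 3 (1062 genes), with Serpina3n at an adjusted p of 0.0534. For the knockdown after TNF-α, where 4 of the 10 and 2360 of 14593 genes were called, no filter gave 6, all lower, with Lcn2 (-0.73) and S1pr3 (-0.56) added (4540 of 24134 genes). For TNF-α in control KD, where 1 of the 10 and 403 of 15332 genes were called, DESeq2 gave 2 (761 genes), no filter 6 (1255 of 26474), the block 3 (988) and the 4 libraries compared alone 0 (72 of 14803). For TNF-α in GSTM1 KD, where 1 of the 10 and 406 genes were called, no filter gave 6 (1050), the block 3 (808) and the 4 libraries alone 4 (691 of 14753). For the difference of responses no filter gave 1, Steap4 (adjusted p = 0.00896), and 134 genes in all against 0. The cause of these changes was not tested. Same-numbered libraries of different groups deviated together (r = 0.165 to 0.575), but 2 numbers do not show a pairing. In the fit with the replicate number as a block, knockdown after TNF-α had 4 calls, as without it, and 4302 genes in all.

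Leaving out 1 library moved the number called between 0 and 7 for the knockdown in each state, between 0 and 2 for TNF-α in control KD (180 to 313 genes in all), and left 0 for TNF-α in GSTM1 KD, with any of the 4 libraries (74 to 255 genes in all), and for the difference, with any of the 8 (0 to 2 genes). The 7 came at the basal level without control KD replicate 2, where 5256 of 15352 genes were called in all and Steap4 (1.45) and Cp (1.02) were called higher, and after TNF-α without control KD replicate 1 (2703 of 14770) or replicate 2 (5028 of 15274). Without control KD replicate 2 after TNF-α, the log2 fold changes of Steap4, S1pr3 and Cp were 1.89, 0.58 and 1.04. Without replicate 1 those of Lcn2 and S1pr3 were -1.29 and -1.19. With 1 control KD library left, the spread in these fits came from the GSTM1 KD pair alone. The variance between replicates was 13.8 times that of counting in GSTM1 KD and 56.1 times in control KD at the basal level. After TNF-α it was 15.8 and 37 times. Without a GSTM1 KD replicate 0 were called, where 1 and 3 genes of all were called at the basal level and 0 and 94 after TNF-α. With all 7 other libraries kept in the fit, an alternative chosen after seeing the data, leaving out GSTM1 KD replicate 1 or 2 gave 2 and 0 at the basal level and 3 and 0 after TNF-α, and leaving out a control KD replicate gave 3 or 4. In these fits the lone library is assumed to vary like the others.

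Log2 fold changes near 0 changed sign under several alternatives. With 1 library left out some larger ones did too, among them S1pr3 at the basal level, at -1.13 with all libraries. Vim at the basal level was -0.019 without a filter. Steap4 between GSTM1 KD and control KD after TNF-α was 0.044 with library size only, 0.011 with at least 10 counts in every library, 0.40 with the replicate block, 0.0038 with effective lengths as offsets, 0.49 by TPM and 0.0076 with all 8 libraries. The difference of responses of Timp1 was -0.0046 with at least 10 counts, -0.0082 with the replicate block and -0.051 by TPM. With 1 library left out, the knockdown at the basal level ran from -1.26 to 0.13 for Lcn2, -1.82 to 0.18 for S1pr3, -0.069 to 1.02 for Cp and -0.18 to 0.21 for Vim. After TNF-α it ran from -1.29 to 0.19 for Lcn2, -0.82 to 1.89 for Steap4, -1.19 to 0.58 for S1pr3, -0.59 to 1.04 for Cp and -0.18 to 0.29 for Vim. The response of control KD ran from -0.32 to 2.13 for S1pr3, -0.84 to 0.28 for Hspb1 and -0.31 to 0.14 for Vim, and that of GSTM1 KD from -0.22 to 0.13 for Hspb1, -0.16 to 0.31 for Serpina3n and -0.045 to 1.48 for Aspg. The difference ran from -0.88 to 0.59 for Lcn2, -1.77 to 0.92 for Steap4, -0.73 to 1.72 for S1pr3, -0.37 to 0.31 for Timp1, -0.34 to 0.78 for Hspb1, -1.01 to 0.67 for Cp, -0.31 to 0.15 for Serpina3n and -0.17 to 0.29 for Vim. By CPM in place of TPM 22 places in the order of the genes moved. Depth limits Aspg alone, at 3 to 45 counts a library.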
